A study of Mus musculus with 10 samples.

Results

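CEBPB(V285A) and CREB1(A297V) were set against each other on unmethylated DNA, using the 4 arrays that the labels give to these proteins without methylation, 2 per protein, out of 10 arrays in the series. Each is the isolated bZIP DNA-binding domain of a mouse transcription factor with 1 amino acid replaced by site-directed mutagenesis, fused to an N-terminal GST tag and made by cell-free transcription and translation. In V285A a valine of CEBPB became an alanine, and in A297V an alanine of CREB1 became a valine. The measurements therefore describe isolated domains on naked DNA and not factors in cells. Protein binding microarrays carry double-stranded DNA probes on glass, and bound protein is read as Cy5 signal at each probe. All arrays had the same 40330 probes, each with a variable region of 35 bases. The other arrays held both mutants on DNA methylated at CG by M.SssI for 3 h and CREB1 without a substitution on unmethylated DNA, again 2 each. Those of CREB1 are given as a reference, and CEBPB without a substitution was not analysed here. Whether replicate arrays used separate protein preparations is not given, so p-values rest on array-to-array spread that may be technical.

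bZIP proteins bind DNA as dimers. Each monomer lays its basic region in the major groove over a half-site of 4 bases, and 2 half-sites face each other in an 8-base site. CREB1 is known for the cAMP response element (CRE), built from the half-site TGAC. C/EBP proteins are known for sites built from TTGC, and PAR proteins for sites built from TTAC. An 8-mer here stands for itself and its reverse complement.

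The probes below were chosen by their own values. They are among the strongest probes of a mutant or those with the largest called differences, and the last was added after its values were seen. Capitals mark the 8-mer in the probe with the highest mean score of the mutant for which the probe was chosen. They comprise a strong probe of both mutants with the CRE palindrome, the strongest CREB1(A297V) probe with the PAR palindrome, a pair with C/EBP sites and a pair with the PAR half-site in an ACA context, and a last probe without TGAC or TTAC or TTGC.
HK14808: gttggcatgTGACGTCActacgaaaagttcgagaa
HK26957: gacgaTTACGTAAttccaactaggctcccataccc
HK02413: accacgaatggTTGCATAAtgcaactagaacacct
HK02000: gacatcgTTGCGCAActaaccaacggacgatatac
HK24376: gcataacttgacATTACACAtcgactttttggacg
HK04787: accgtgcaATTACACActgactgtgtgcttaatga
HK17096: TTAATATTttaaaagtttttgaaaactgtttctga

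Scores were computed from the spot signals. An 8-mer's Z-score starts from the log2 signal of the 15 to 42 probes that hold it, less the median log2 signal of nearby spots. The measured spot background was not subtracted. The median over these probes is expressed as a distance from the median 8-mer in units of that array's own spread. The arrays differed in range. Median signal was 735 and 738 on the CEBPB(V285A) arrays and 1470.5 and 1857 on the CREB1(A297V) arrays. The strongest 8-mer reached 38.4 and 34.0 times the array median for CEBPB(V285A) but 6.92 and 6.40 times for CREB1(A297V), so a Z unit is a smaller fold for the second protein. The deposited tables carry different array identifiers for both mutants, so identifier and protein cannot be told apart on unmethylated DNA. Differences were tested with limma across all 10 arrays and called at an adjusted p below 0.05.

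CEBPB(V285A) and CREB1(A297V) shared their strongest sites and parted below them. TTACGTAA, the PAR palindrome, ranked first for both proteins, and TGACGTAA, a CRE half-site facing a PAR half-site, ranked second for both. Beyond these, 80.6% of the 72 8-mers found among the 100 strongest of CEBPB(V285A) alone held TGAC, and 94.4% held a CG. Of the 72 found among the 100 strongest of CREB1(A297V) alone, 90.3% held TTAC, 4.17% held TGAC and 23.6% held a CG. Among all 32896 8-mers, TGAC and TTAC each occur in 3.89% and CG in 38.1%. The top 100 lists shared 28 8-mers, against 84 between the replicate arrays of CEBPB(V285A) and 80 between those of CREB1(A297V).

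The wider sets of bound 8-mers differed in the same direction. A mean Z of at least 3 was reached by 1150 8-mers with CEBPB(V285A) and by 552 with CREB1(A297V). These sets shared 289 8-mers, which is 25.1% of the first and 52.4% of the second. On single arrays a Z of at least 3 was reached by 1216 and 1094 8-mers with CEBPB(V285A) and by 389 and 762 with CREB1(A297V). TTAC was present in 69.0% of the CREB1(A297V) set and 23.7% of the CEBPB(V285A) set. TGAC was present in 13.6% and 32.3%, and TTGC in 1.09% and 7.83%, against 3.82% of all 8-mers. Across all 8-mers the mean Z-scores of the mutants correlated at a Pearson r of 0.715, against 0.969 and 0.872 between replicates. Over the 1413 8-mers that reached 3 with either protein, r was 0.264. These 8-mers were chosen for a high score with at least 1 of the proteins, which tends to lower r. These correlations run across 8-mers that overlap and share probes, and are descriptions.

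Of the 32896 8-mers tested, 8471 were called (25.8%), 4648 higher with CEBPB(V285A) (14.1%) and 3823 lower (11.6%), by limma with Benjamini-Hochberg adjustment. Among the 1413 strong 8-mers, 887 were higher, 218 lower and 308 not called. These were chosen by the same scores, and 1150 reached 3 with CEBPB(V285A) but 552 with CREB1(A297V). The split therefore partly restates the choice. The higher share of all calls, 54.9%, depended on the scaling: it was 43.4% after normexp background correction and 70.6% with the authors' deposited scores. Without the first CEBPB(V285A) array 3793 8-mers were called, and without the second 4807.

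**Figure D1:**
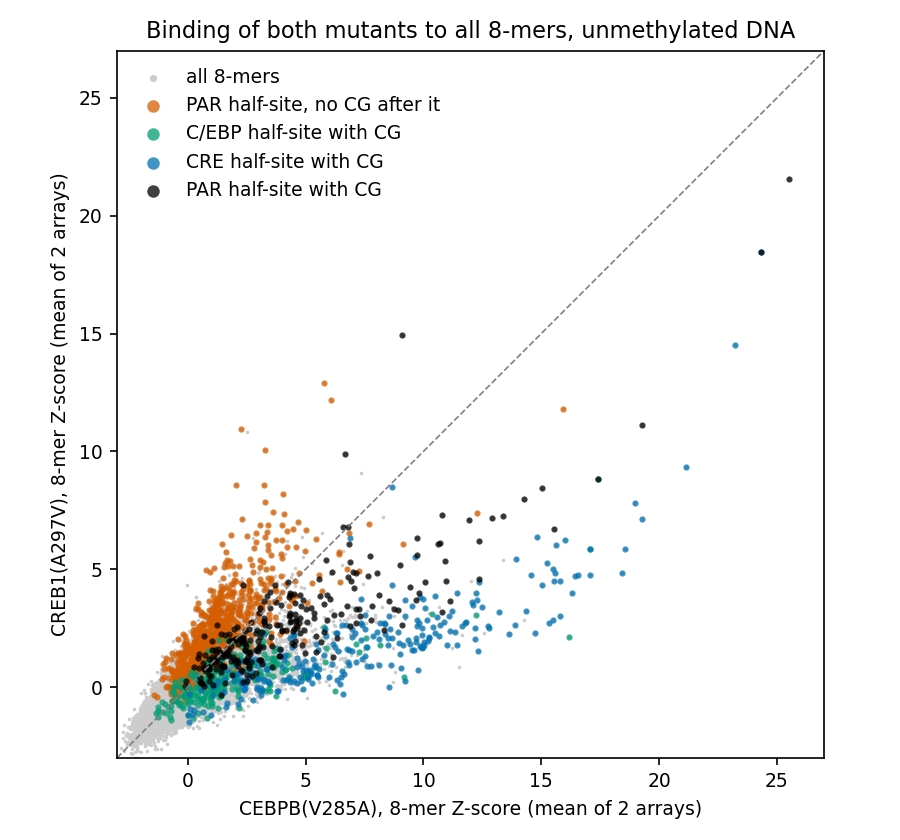
Mean Z-score of each of the 32896 8-mers with CEBPB(V285A) (x axis) and CREB1(A297V) (y axis), each point an 8-mer and each mean over 2 arrays; colours mark lists by half-site, later lists are drawn over earlier ones, and the dashed line is equality. Sites with a CRE half-site before G (TGACG, blue) lie below the line. PAR half-sites before A, C or T (orange) lie mostly above it, and the PAR palindrome is the point farthest to the upper right.

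Pairs of facing half-sites set out the pattern. In the PAR palindrome TTACGTAA the Z-scores were 25.5 and 25.5 with CEBPB(V285A) and 19.1 and 24.0 with CREB1(A297V). Both CREB1(A297V) arrays lay below those of CEBPB(V285A), and the difference of 3.93 ± 3.20 (SE) did not pass the test (limma adjusted p = 0.392). Its 95% interval ran from -2.76 to 10.6, which holds 0 as well as differences larger than several called ones. Without a substitution CREB1 gave 14.8 and 15.9 at this site. In signal, TTACGTAA stood at 38.4 and 34.0 times the array median with CEBPB(V285A) and at 6.92 and 6.40 times with CREB1(A297V). TGACGTAA gave 24.6 and 24.1 with CEBPB(V285A) against 15.6 and 21.4 with CREB1(A297V), again without overlap. It was not called (limma adjusted p = 0.185, interval -0.787 to 12.5). Its signal was 33.7 and 27.9 times the array median with CEBPB(V285A) and 4.83 and 5.21 times with CREB1(A297V).

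The CRE palindrome TGACGTCA was the strongest site of CREB1, at 29.1 and 32.5. With CEBPB(V285A) it stood at 23.3 and 23.1 and with CREB1(A297V) at 12.7 and 16.4. The difference was 8.70 ± 3.05 (SE, limma adjusted p = 0.0412). That call did not hold without any of the 4 CEBPB(V285A) arrays, without either methylated array of CREB1(A297V), and without the first unmethylated array of CREB1(A297V), where the adjusted p ranged from 0.0505 to 0.200 and the difference from 6.87 to 8.78. It was also lost after quantile normalization (0.511), after normexp background correction (1.01), with the authors' deposited scores, with only the 4 arrays compared and with the variance trend on mean Z.

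The C/EBP palindrome TTGCGCAA had the largest difference of all 8-mers in Z units. Its Z-scores were 15.6 and 16.8 with CEBPB(V285A) and 1.08 and 3.16 with CREB1(A297V), close to the 2.09 and 2.62 of CREB1. The difference was 14.1 ± 1.22 (SE, limma adjusted p = 1.71e-06). In signal, it stood at 9.25 and 10.2 times the array median with CEBPB(V285A) and at 1.11 and 1.28 times with CREB1(A297V). By fold of the array median GTGACGTC, at 16.9 and 10.6 against 1.36 and 1.67, differed more. TTGCGCAA ranked 16 for CEBPB(V285A) and 1341 for CREB1(A297V).

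CREB1(A297V) was also lower where C/EBP faced CRE or PAR, while C/EBP facing CRE-3T overlapped, at 2.19 and 2.48 against 1.33 and 2.44 for TTGCGACA (CRE-3T is defined below). TGACGCAA, CRE facing C/EBP, gave 17.3 and 16.8 against 4.05 and 7.67, a difference of 11.2 ± 1.86 (SE, limma adjusted p = 0.000236). TTACGCAA, PAR facing C/EBP, gave 18.6 and 16.2 against 7.33 and 10.4, a difference of 8.54 ± 1.87 (SE, limma adjusted p = 0.00241). The arrays of the mutants did not overlap at either site. The second call was lost without the first CEBPB(V285A) array, at a difference of 7.32, and after quantile normalization, at 0.868.

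Variants of the CRE half-site with another base at position 3 were tested too: TGTC, written CRE-3T below, and TGGC, written CRE-3G. The CRE-3T palindrome gave the reverse order. The list of all 256 8-mers with CRE-3T before G (TGTCG) held 47 higher with CEBPB(V285A) (18.4%) and 18 lower (7.03%). Over all 8-mers the shares were 14.1% and 11.6%. The median difference of the list was 0.202. Both of its counts fell without the first CEBPB(V285A) array, as did the count of calls over all 8-mers. In the palindrome TGTCGACA the Z-scores were 2.90 and 2.11 with CEBPB(V285A) and 8.87 and 12.8 with CREB1(A297V), a difference of -8.31 ± 1.20 (SE, limma adjusted p = 7.03e-05). CREB1 without a substitution lay at 3.24 and 4.40. This site ranked 10 for CREB1(A297V) and 1535 for CEBPB(V285A). In signal it was 1.51 and 1.34 times the array median with CEBPB(V285A) and 2.45 and 2.68 times with CREB1(A297V), so the order held on the fold scale as well.

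Facing a PAR half-site, CRE-3T formed TTACGACA, which ranked 3 for CREB1(A297V), at 12.3 and 17.5, against 9.43 and 8.78 with CEBPB(V285A). The difference of -5.84 ± 2.07 (SE) passed narrowly (limma adjusted p = 0.0439). The call was lost without either methylated array of CEBPB(V285A), without either of its unmethylated arrays and without the second unmethylated array of CREB1(A297V), at differences from -6.17 to -3.24. It was lost as well on the log2 signal scale (-0.03), with signal divided by background (-3.31), with the authors' deposited scores, with only the 4 arrays compared and with the variance trend on mean Z. Facing a CRE half-site, CRE-3T gave overlapping scores: TGACGACA stood at 6.67 and 7.13 against 5.47 and 7.16, with an interval of -1.55 to 2.72. After quantile normalization it was called lower with CEBPB(V285A), at -4.27.

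Where CRE-3G faced CRE, C/EBP or PAR, CEBPB(V285A) was higher. TGACGCCA gave 6.76 and 8.29 against 0.295 and 2.38, a difference of 6.19 ± 0.919 (SE, limma adjusted p = 8.77e-05). TTGCGCCA gave 3.66 and 3.87 against -0.458 and -0.293, a difference of 4.14 ± 0.402 (SE, limma adjusted p = 2.90e-06). TTACGCCA differed less, at 7.61 and 6.50 against 3.86 and 4.51 (limma adjusted p = 0.0169), and this call was lost without the first CEBPB(V285A) array (2.31) and without the first unmethylated CREB1(A297V) array (2.54) and after normexp background correction (1.11), and turned to -0.266 after quantile normalization. The remaining pairs, in which C/EBP or CRE-3G faced CRE-3T or CRE-3G faced itself, lay between -0.959 and 2.48 on all 4 arrays and were not called.

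**Figure D2:**
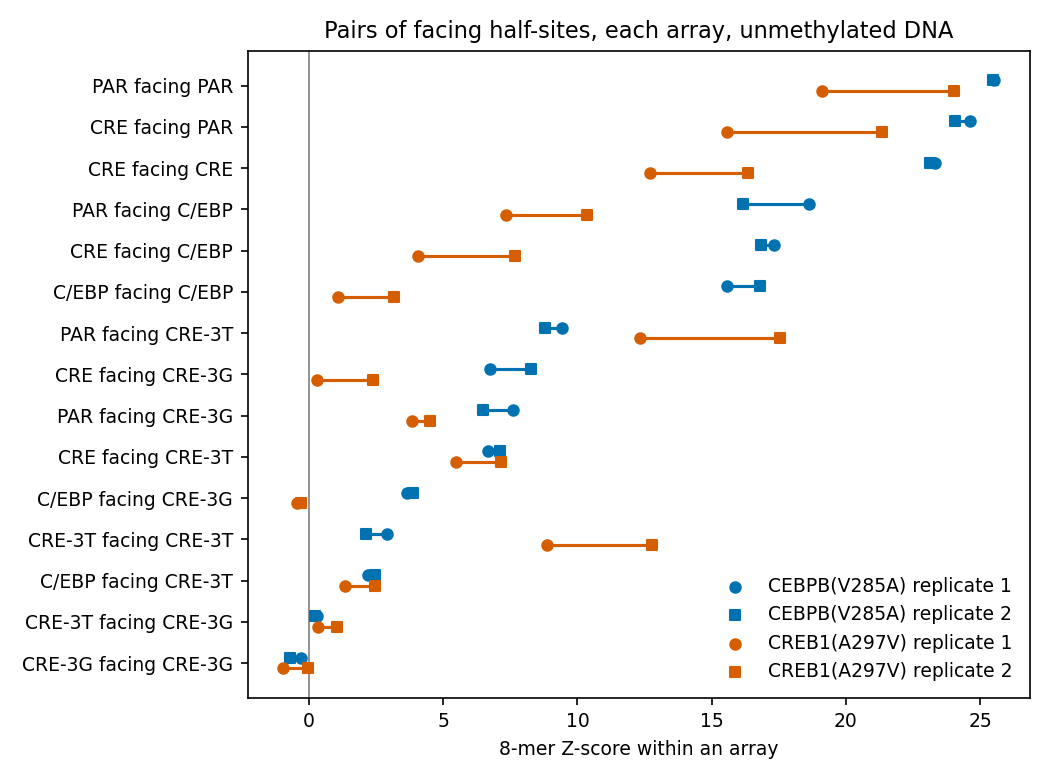
Z-score of each of 15 pairs of facing half-sites (rows, ordered by the CEBPB(V285A) mean) on each of the 4 unmethylated arrays of the mutants; circles and squares are replicate arrays and lines join replicates of a protein. CREB1(A297V) lies to the left of CEBPB(V285A) at every pair with a C/EBP half-site except C/EBP facing CRE-3T, and to the right of it at CRE-3T facing PAR, CRE-3T or CRE-3G.

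Single-base variants of TTACGTAA, with positions counted from 1 at the 5' end, differed in both directions. At the outer T, all of T1A, T1C and T1G were higher with CEBPB(V285A), at differences of 5.72, 6.27 and 5.91 Z. CREB1(A297V) kept 5.39 and 8.95 at T1A and 6.00 and 9.98 at T1C but 1.58 and 3.29 at T1G, against 9.19 and 7.51 with CEBPB(V285A). The T1A and T1C calls were lost without the first CEBPB(V285A) array (5.24 and 4.85) and without the first unmethylated CREB1(A297V) array (3.94 and 4.28), and the T1A call also without the second CEBPB(V285A) array (6.20). Both were lost after normexp background correction (2.00 and 1.88) and turned sign after quantile normalization (-1.04 and -1.58). At the second base, T2C was called higher with CEBPB(V285A), at 9.22 and 8.59 against 2.52 and 4.02, and T2A was not called. At the next base, A3G is PAR facing C/EBP, described above. A3C gave 3.23 and 3.23 against 2.59 and 2.90, and A3T gave 6.98 and 6.35 against 8.89 and 10.9, with CREB1(A297V) above on both arrays; neither was called (limma adjusted p = 0.533 and 0.115).

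At the last base of the half-site the variants went both ways. C4G, which makes TTACCTAA on the other strand, gave 6.33 and 5.81 with CEBPB(V285A) against 9.80 and 14.6 with CREB1(A297V), and 2.60 and 2.95 with CREB1. The difference was -6.11 ± 1.54 (SE, limma adjusted p = 0.00664). That call was lost without either unmethylated CEBPB(V285A) array (-6.37 and -5.85) and without the second unmethylated CREB1(A297V) array (-3.73), on the log2 signal scale (-0.29) and with the authors' deposited scores. C4A gave 3.88 and 3.60 against 5.11 and 7.41 (limma adjusted p = 0.0442), and this call did not hold without any of the 4 CEBPB(V285A) arrays or the second unmethylated array of CREB1(A297V), at -2.66 to -1.37. It was lost also on the log2 signal scale (-0.03), with no local window, with signal divided by background, with the authors' deposited scores and with only the 4 arrays compared. C4T gave 16.1 and 15.7 against 10.8 and 12.8 and was not called, with CREB1 at 2.81 and 3.50. Both mutants scored above CREB1 at C4T on every array.

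Differences were then counted by half-site and the base after it. For each half-site followed by a given base, every 8-mer with that 5-mer on either strand was counted. These lists were chosen with results of these data known and are given as counts beside the background of 14.1% higher and 11.6% lower. Calls over all 8-mers also fell when an unmethylated CEBPB(V285A) array was left out. List counts from such fits are therefore not comparable with this background.

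For the CRE half-site the mutants differed in the same direction before every base. Before G (TGACG), 248 of 256 8-mers were higher with CEBPB(V285A) and 0 lower, with a median difference of 5.12 Z. On single arrays the median Z of the list was 7.30 and 6.38 with CEBPB(V285A) and 0.999 and 2.12 with CREB1(A297V). Before A, 149 of 256 were higher and 3 lower; this list is also that of TGTC before A, its reverse complement. Before C, 106 were higher and 2 lower, and before T 95 and 5. Without the first CEBPB(V285A) array the higher counts before A, C and T were 84, 56 and 50. The example with the largest difference before G was GTGACGTC, at 19.8 and 17.0 against 3.02 and 6.67, a difference of 13.6 ± 2.10 (SE, limma adjusted p = 0.00013). TGACGTGG, a CRE half-site that faces no second one of these half-sites, gave 16.9 and 14.6 against 1.86 and 4.21. CREB1 bound both, at 17.6 and 22.5 and at 16.3 and 19.5. CREB1(A297V) was below both other proteins on every array at these sites.

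For the PAR half-site the direction depended on the following base. Before G (TTACG), 99 of 256 8-mers were higher with CEBPB(V285A) and 7 lower, with a median difference of 1.18. Before A it was 7 higher and 120 lower (median -1.18), before C 7 and 108 (median -0.798) and before T 1 and 168 (median -1.15). The median Z of the TTACA list was 1.81 and 1.77 with CEBPB(V285A) and 2.67 and 3.62 with CREB1(A297V). In it 71 8-mers reached a mean Z of 3 with CEBPB(V285A) and 138 with CREB1(A297V). Among 8-mers that begin with TTAC and A, 15 of 64 reached 3 with CEBPB(V285A) and 35 with CREB1(A297V), against 32 and 19 of those that begin with TTAC and G.

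These counts move with the scaling, since a Z unit is a smaller fold for CREB1(A297V). On the log2 signal scale the TTACA list held 44 higher and 43 lower 8-mers with a median of -0.03, against -0.01 for all 8-mers, the TTACC list 20 and 48, and the TTACT list 8 and 84. With the authors' deposited scores they held 10 and 36, 6 and 40, and 1 and 67. Without the first CEBPB(V285A) array they held 1 and 58, 1 and 48, and 0 and 100, and without the second 2 and 65, 1 and 54, and 0 and 101. The TTACG list held 190 and 0 on the log2 signal scale, 43 and 2 without the first CEBPB(V285A) array and 60 and 1 without the second. After quantile normalization it held 55 and 31 with a median of 0.242, and after normexp background correction 48 and 8 with a median of 0.433. The TGACG list stayed between 219 and 254 higher under every alternative run.

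The 5 largest differences in Z toward CREB1(A297V) lay at PAR half-sites before A and at the CRE-3T palindrome. TTACACAT gave 2.31 and 2.24 with CEBPB(V285A) and 9.18 and 12.7 with CREB1(A297V), a difference of -8.68 ± 1.19 (SE, limma adjusted p = 4.40e-05). ATTACACA gave 5.87 and 5.73 against 11.0 and 14.8, a difference of -7.09 ± 1.42 (SE, limma adjusted p = 0.0012). ATTACAAA stood at 3.26 and 3.30 against 8.15 and 12.0, and TTACACAC at 2.21 and 1.89 against 6.94 and 10.2. The arrays did not overlap at any of them. CREB1 without a substitution lay between 1.95 and 3.56 at all 4. In signal, TTACACAT was 1.39 and 1.36 times the array median with CEBPB(V285A) and 2.53 and 2.67 times with CREB1(A297V). With the authors' deposited scores none of the 4 kept its call, at adjusted p from 0.0643 to 0.237, with differences on that scale of -13.4, -14.4, -9.21 and -10.3 in the order given. On the log2 signal scale ATTACACA lost its call (-0.45, limma adjusted p = 0.0818).

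The C/EBP half-site was bound mainly by CEBPB(V285A), before G and A. Before G (TTGCG), 150 of 256 8-mers were higher and 1 lower, and before A 72 of 234 were higher and 9 lower. Before C the counts were 25 and 20 of 256 and before T 26 and 16, below the background in both directions. TTGCATAA gave 14.1 and 14.5 with CEBPB(V285A) against 2.27 and 3.38 with CREB1(A297V), a difference of 11.5 ± 1.02 (SE, limma adjusted p = 1.71e-06), and CREB1 stood at 1.44 and 1.72. TTGCATCA differed by 9.43 ± 0.910 (SE, limma adjusted p = 2.90e-06). Without the first CEBPB(V285A) array the TTGCG list held 109 higher 8-mers and the TTGCA list 46, and the counts before C and T were 8 and 7 and 12 and 4.

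Lists of other kinds moved too. The E-box core CACGTG, the site of another family of dimeric factors, occurs in 26 8-mers, of which 25 were higher with CEBPB(V285A) and 0 lower. CACGTGAC, which also holds a CRE half-site, gave 9.58 and 7.94 against 2.00 and 4.05. The ETS core GGAAG, the site of an unrelated family, reached a mean Z of 3 in none of its 256 8-mers with either protein. Of these, 63 were lower with CEBPB(V285A) (24.6%) and 4 higher (1.56%), against 11.6% and 14.1% of all 8-mers. With the authors' deposited scores 20 were lower and 4 higher, where 5158 of all 8-mers were called. The lower count fell without either unmethylated CEBPB(V285A) array, as did the count of calls over all 8-mers. The share of higher calls rose with the number of CG: 8.27% of 20349 8-mers without CG, 21.6% of 10762 with 1, 35.8% of 1702 with 2 and 42.2% of 83 with 3 or more. The counts behind these shares, 1683, 2320, 610 and 35, were 702, 1217, 353 and 18 without the first CEBPB(V285A) array.

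**Figure D3:**
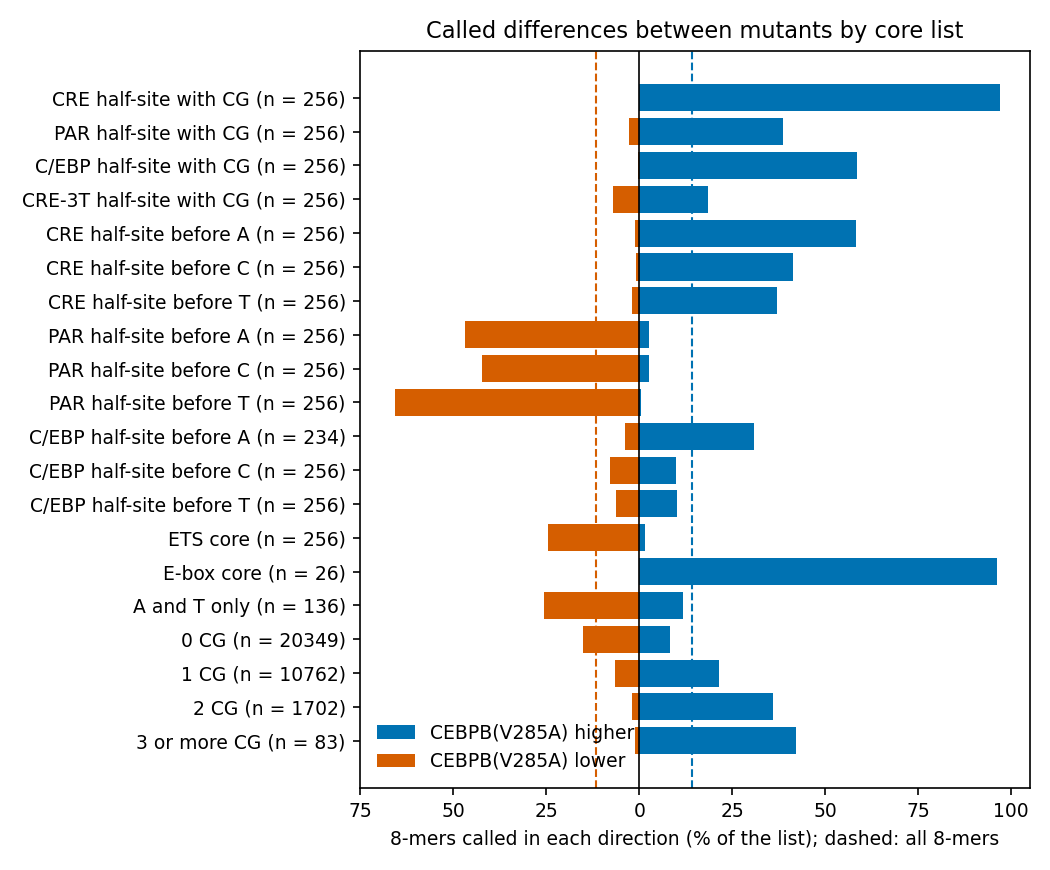
Percent of each list's 8-mers called higher with CEBPB(V285A) (right, blue) or lower (left, orange), by list, with the size of each list in brackets; dashed lines are the shares over all 8-mers, 14.1% and 11.6%. The CRE half-site with CG and the E-box core are called higher almost throughout, and the PAR half-site is called lower before A, C and T.

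Ranking all distinct 5-mers by the median difference of their 8-mers put TGACG first, at 5.12, followed by TACGT at 3.36, GACGT at 2.44, CACGT at 2.18 and ATGAC at 2.13. At the other end lay TTACA at -1.18, ATTAC at -1.18, TTACT at -1.15 and TTTAC at -0.976, followed by ATTTC at -0.835. The first 5 hold a CG or TGAC and 4 of the last 5 hold TTAC. The strongest 8-mer of CREB1(A297V) with none of the half-sites TGAC and TTAC and TTGC and TGTC was the palindrome TTAGCTAA, at 4.61 and 8.05 against 2.88 and 2.62 with CEBPB(V285A) and -0.0609 and -0.329 with CREB1. The strongest such 8-mer of CEBPB(V285A) was CCTACGTA, at 13.4 and 11.8 against 1.84 and 2.71, with CREB1 at 10.2 and 11.9.

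The same comparison was made on the methylated arrays, which carry other hybridisations of both mutants. There the deposited tables of both mutants carry the same array identifier. The probe positions differed, however. Compared with the first CREB1 array, 100% of probes held the same position on both methylated CEBPB(V285A) arrays and 0% on both of CREB1(A297V). Probe layout and protein therefore cannot be told apart on methylated DNA. Only the 20349 8-mers without CG were used, since M.SssI does not modify them, although CG elsewhere in their probes was open to methylation. On these arrays 2864 were called (14.1%), 1316 higher with CEBPB(V285A) (6.47%) and 1548 lower (7.61%); 45.9% of the calls were higher, against 57.1% after normexp background correction. Leaving out a methylated array lowered the count to 1134 and 1236 for CEBPB(V285A) and to 1561 and 1072 for CREB1(A297V).

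Differences at strong 8-mers without CG recurred there. Of 4758 called on unmethylated arrays, 79.7% had the same sign on methylated arrays, 1280 were called the same way and 36 the opposite way. Across all 20349 8-mers without CG, the differences in both sets of arrays correlated at 0.608. Among the 587 that reached 3 with either mutant on unmethylated arrays, a choice by scores that enter these differences, they correlated at 0.848. Of these, 199 were called higher on unmethylated arrays, of which 104 were called higher on methylated arrays too, and 202 were called lower, of which 155 were called lower again; 0 were called the opposite way. TTACACAT gave 4.53 and 3.64 with CEBPB(V285A) against 15.5 and 18.1 with CREB1(A297V), a difference of -12.7 ± 1.05 (SE, limma adjusted p = 4.31e-08). TTGCATAA gave 15.3 and 14.4 against 3.00 and 4.16, a difference of 11.3 ± 0.856 (SE, limma adjusted p = 1.40e-08).

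The lists divided into those with like counts in both sets of arrays and those without. Over all 8-mers without CG, 8.27% were higher and 15.1% lower on unmethylated arrays, and 6.47% and 7.61% on methylated arrays. The list counts below therefore stand against a changing background. Counting only members without CG, PAR before A had 117 of 232 lower on unmethylated and 143 on methylated arrays. PAR before C had 94 and 111 of 186, and PAR before T 157 and 156 of 232. C/EBP before A had 61 higher and 59 higher of 211. The CRE half-site before A had 130 of 232 higher but 32 on methylated arrays, and its median difference was 1.10 and 0.336. The ETS core had 52 of 186 lower but 7 on methylated arrays. The 136 8-mers of A and T alone had 16 higher and 35 lower on unmethylated arrays and 23 and 6 on methylated arrays, and their median difference was -0.276 and 0.307. On the log2 signal scale the unmethylated counts were 42 higher and 9 lower with a median of 0.06, and with the authors' deposited scores 14 and 6. The change between the sets of arrays was not tested.

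**Figure D4:**
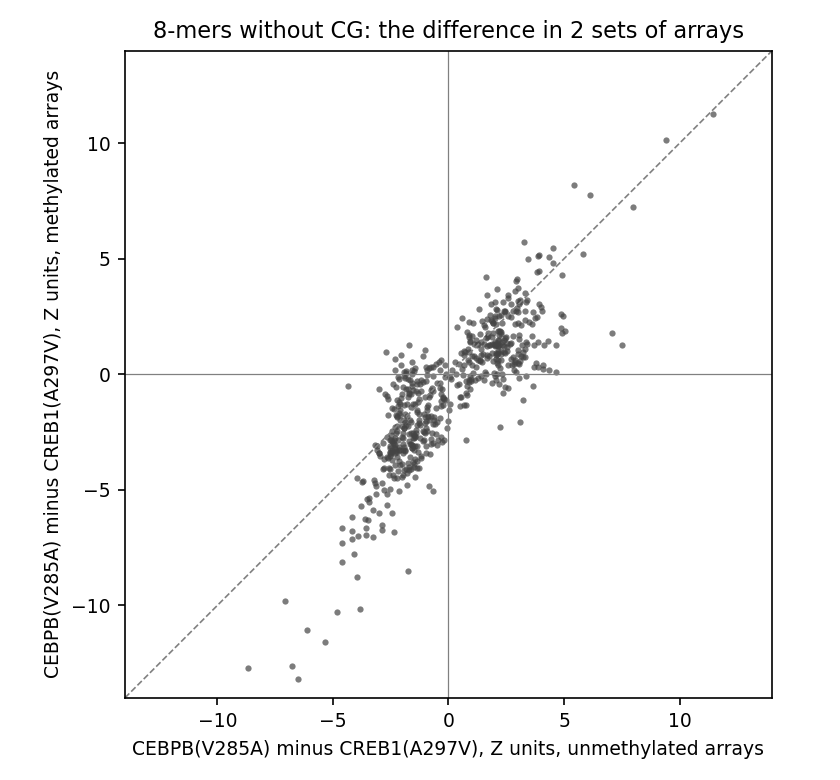
Difference in Z between the mutants on unmethylated arrays (x axis) and on methylated arrays (y axis) for the 587 8-mers without CG that reached a mean Z of 3 with either mutant, each point an 8-mer; the dashed line is equality. Points lie mostly in the lower left and upper right, and the lowest, at PAR half-sites, are farther below 0 on the methylated arrays.

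Single probes were tested as well, on probe Z-scores, and raw signals are given for named ones. Of 40330 probes, 11476 were called (28.5%), 6603 higher with CEBPB(V285A) (16.4%) and 4873 lower (12.1%), by limma. The higher share of calls was 57.5%, against 41.0% after normexp background correction, 69.5% with signal divided by background and 68.1% with no local correction. Without the first CEBPB(V285A) array 6029 probes were called. HK14808 with the CRE palindrome gave signals of 65528 and 54131 with CEBPB(V285A) and 36781.5 and 52078.5 with CREB1(A297V), the first at the top of the scanner's scale. HK26957 with the PAR palindrome gave 65528 and 48548 against 44626 and 65528. In probe Z the differences were -1.36 and -2.61, opposite in sign to the 8.70 and 3.93 of the 8-mers they hold. Neither probe was called, and saturated signals are lower bounds.

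Several of the probes that differed most held 8-mers named above. HK02413 with TTGCATAA gave 28485 and 29184 with CEBPB(V285A) and 1659 and 2008 with CREB1(A297V), the second pair near the medians of those arrays. HK02000 with the C/EBP palindrome gave 31207 and 34535 against 2636 and 3633. HK24376 with ATTACACA gave 1818 and 1773.5 against 21814 and 27433, and HK04787 with the same site 1691 and 1445 against 13642 and 24669.5. CREB1 gave 3015 and 2598.5 on HK24376. The lowest difference in Z, however, was that of HK05863, at -8.56, with signals of 1331.5 and 877 against 23260 and 15109, and its strongest 8-mer TTTACATA had a mean Z of only 4.41 with CREB1(A297V). These probes were chosen for their differences.

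HK17096 was chosen after its values were seen, as the probe with the sixth lowest difference. It gave signals of 724 and 823 with CEBPB(V285A) and 10265 and 9191 with CREB1(A297V), or probe Z-scores of 0.197 and 0.233 against 6.96 and 6.62. CREB1 gave 0.446 and 0.649. On methylated arrays CREB1(A297V) gave 8.91 and 8.30 again, and CEBPB(V285A) 0.964 and 4.18. Its strongest 8-mer for CREB1(A297V), AATATTAA on the other strand of the capitals, had a mean Z of 2.95, below the cut for a strong 8-mer.

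Across all probes with a palindrome, the difference between the mutants varied with the half-site. The PAR palindrome lay on 18 probes, with a median probe Z of 9.61 with CEBPB(V285A) and 7.53 with CREB1(A297V), and 2 were called higher. The median difference within a probe was 0.850, and 6 of the 18, among them the strongest of CREB1(A297V), had the higher mean with CREB1(A297V). The CRE palindrome lay on 19, with 8.35 and 5.22, and 13 were called higher. The C/EBP palindrome lay on 17, with 6.09 and 0.753, and 16 were called higher. The CRE-3T palindrome lay on 16, with 0.975 and 3.77, and 12 were called lower and 1 higher. Median raw signal at the C/EBP palindrome was 7918 and 6844 with CEBPB(V285A) and 1882 and 2410 with CREB1(A297V).

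Scores at the PAR and CRE palindromes differed with the flanking base for both mutants. With no T directly outside the PAR palindrome on either side, 9 probes had a median Z of 11.4 and 10.5 with CEBPB(V285A) and CREB1(A297V), and with T on 1 side 6 probes had 6.86 and 5.79. At the CRE palindrome the same split gave 9.79 and 7.10 on 9 probes, and 7.90 and 2.76 on 6. At the C/EBP palindrome it gave 7.87 and 0.912, and 4.85 and 0.848. These groups of probes also differ in other bases, and the split was not tested.

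**Figure D5:**
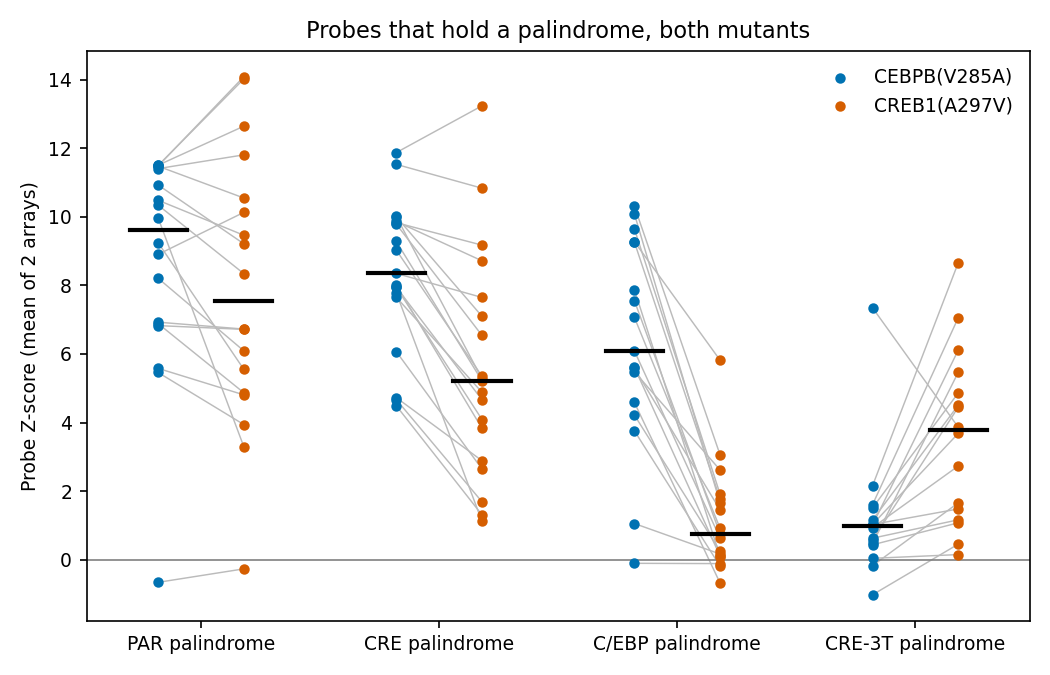
Probe Z-score (y axis, mean of 2 arrays) of every probe that holds the PAR, CRE, C/EBP or CRE-3T palindrome with CEBPB(V285A) (blue) and CREB1(A297V) (orange); grey lines join the same probe and black bars are medians. The medians lie at 9.61 and 7.53 for PAR, 8.35 and 5.22 for CRE, 6.09 and 0.753 for C/EBP, and 0.975 and 3.77 for CRE-3T.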

How the data were processed

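Per the file headers, each deposited table holds the median signal intensity and median background intensity of every spot, linear and not background-subtracted. A matrix of scores per 8-mer, deposited by the authors as Z-scores with steps not given in the sources used here, served as an alternative. Scanner settings and array processing are not given in the sources used here.

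From the intensities, log2 signal was lowered by the median of a window of 15 by 15 spots. For each 8-mer the median over its probes (at least 8) was centred on the median 8-mer and divided by 1.4826 times the median absolute deviation, per array. All 32896 8-mers passed, with a median of 34 probes each. Probes were scored likewise. limma 3.58.1 (R 4.3.3) was fitted over all 10 arrays in 5 groups, with 5 residual degrees of freedom and a variance trend on the inverse hyperbolic sine of mean Z. Tests were two-sided, with Benjamini-Hochberg adjustment over all 8-mers or probes. This scale was used because the trend on mean Z itself is extrapolated at the strongest 8-mers. There the residual SD was 1.60 to 2.62 and the expected SD 1.85 to 3.48. The steps were checked on simulated data, with independent noise for each 8-mer or probe and the same spread in every group. Real 8-mers share probes, so that check does not give error rates for the real arrays. The number of arrays limits the precision.

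The 8-mers and lists were chosen with earlier results of these data known. Named 8-mers were the 10 strongest of each mutant, the 10 highest and 10 lowest called differences, the half-site pairs, the PAR variants, the 5 strongest partners of each half-site and the extremes of each list. Alternatives were background corrections, other scalings, other variance trends, no local window and only the 4 arrays compared. Further ones were at least 25 probes per 8-mer, a replicate block and each array left out. Whether replicate numbers pair the arrays is not given. Replicate differences of the mutants correlated at -0.138 across 8-mers, and those of all pairs of groups at -0.213 to 0.333. Such correlations across overlapping 8-mers cannot show or exclude a pairing.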

Additional observations from a re-analysis of the deposited data

Results flagged for a closer look

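CTTGACTT, which holds no CG, was lower with CEBPB(V285A) on both unmethylated arrays (difference -1.24, limma adjusted p = 0.00116) and higher on both methylated arrays (difference 0.687, limma adjusted p = 0.0649). It was listed because the arrays of the mutants did not overlap in either set and the order was opposite. The difference between the sets was not tested.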

How the results depend on the processing

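The 8471 calls over 8-mers became 5100 with signal divided by background, 4881 with no local window, 5158 with the authors' deposited scores, and 3793 to 9356 on leaving out an array. The 2864 calls over 8-mers without CG on methylated arrays became 1174, 1107 and 1421 under those settings, 6574 on the log2 signal scale, 5565 with only the 4 arrays compared, and 1072 to 4108 on leaving out an array. The 11476 calls over probes became 6145 with signal divided by background, 6692 with no local window, 7096 with only the 4 arrays compared, and 6029 to 11759 on leaving out an array. The replicate block gave 8874, 3132 and 11618. The samples share only a number, and whether it stands for a pairing is not given. With the numbers of CREB1(A297V) crossed, an alternative chosen after seeing the data, 7864 8-mers were called. On the log2 signal scale 10414 8-mers and 12225 probes were called on unmethylated arrays, the highest counts of all settings. Quantile normalization turned the sign of TTACGTAT (-1.04), TTACGTAG (-1.58), TTACGTTA (-3.41), TGACGACA (-4.27), TTACGCCA (-0.266) and TTACATAA (-3.60). The cause was not tested. Of 44 named 8-mers in 21 settings, 832 values kept direction and side of the threshold, 65 lost the call, 16 gained it and these 6 turned.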
